A study of Mus musculus with 10 samples.

Results

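Group 2 innate lymphoid cells (ILC2s) and T helper 2 (Th2) cells were compared for where and how strongly their chromatin carried dimethylation of histone H3 at lysine 4 (H3K4me2). The comparison used 4 of the 10 samples of the series, 2 libraries of each cell type, with every peak that the authors called in them. Both cell types were sorted, on antibodies and on yellow fluorescent protein, from inflamed mice (airway inflammation) of the genotype Gata3-YFP/YFP. Library 1 of each type was made from bronchoalveolar lavage cells and library 2 from mediastinal lymph node cells, and values given as a pair list the lavage first. Neither the age and sex of the mice, nor how inflammation was brought about, nor the sort gates are given in the sources used here. The labels do not say that the libraries of a type came from separate animals, so the p-values measure only the spread between these samples, which holds the site and any technical difference. The other samples were cells labelled naive T from the same sites, CD4+ cells of spleen and thymus, and immunoglobulin G (IgG) controls, and they enter below only where named. The series title is about ILC2s in allergic airway inflammation, and this comparison asks how the chromatin of the innate and the adaptive source of type 2 cytokines differs.

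Enzymes of the MLL family place H3K4me2 on nucleosomes at promoters and enhancers, both active and poised, so the mark outlines the regulatory elements that a cell has opened. ILC2s and Th2 cells both depend on the transcription factor GATA3 and both secrete the cytokines IL-5 and IL-13, which drive eosinophil recruitment and mucus production in the airway. They differ in how they are triggered. Th2 cells carry a rearranged T cell receptor and respond to peptide antigen, while ILC2s lack one and respond to alarmins (IL-33, IL-25 and TSLP), lipids and neuropeptides.

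A region is a stretch formed by joining all peaks of the 4 libraries that lay within 500 bp of each other. A region was called only in ILC2s when both ILC2 libraries and neither Th2 library had a peak in it, and only in Th2 cells in the opposite case. Its height in a library is the sum of the normalized tags (reads in a peak, scaled by the authors to 10000000 per library) of the peaks in it. A region is named here by the nearest gene within 100 kb, which is position only. Absence of a peak means that the authors' criteria were not met there, not that the mark was absent.

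Of the 49 regions called only in ILC2s with at least 400 tags in the lower library, 32.7% held a transcription start site. Of the 14 such regions of Th2 cells 57.1% did, beside 39.2% of all regions. The promoters in 6 of these tall regions are printed because the regions over them were called in 1 cell type only. Kit encodes the receptor of stem cell factor, Vipr2 a receptor for vasoactive intestinal peptide, and Alox5 the enzyme 5-lipoxygenase that starts leukotriene synthesis. Their start sites lay in regions called only in ILC2s. Cd5 encodes a surface inhibitor of T cell receptor signalling, Cd247 the zeta chain of the receptor complex, and Themis an adaptor of the receptor in thymocytes and T cells. Their start sites lay in regions called only in Th2 cells. Each sequence is RefSeq's for GRCm38.p6 (the coordinates of mm10), 300 bases from 250 before to 50 after the start, 5′ to 3′ along the gene, with every CpG dinucleotide in capitals. The first 3 lie at chr5:75574737-75575036 (plus strand), chr12:116077476-116077775 (plus strand) and chr6:116461129-116461428 (minus strand). The other 3 lie at chr19:10738925-10739224 (minus strand), chr1:165788431-165788730 (plus strand) and chr10:28668110-28668409 (plus strand).
Kit: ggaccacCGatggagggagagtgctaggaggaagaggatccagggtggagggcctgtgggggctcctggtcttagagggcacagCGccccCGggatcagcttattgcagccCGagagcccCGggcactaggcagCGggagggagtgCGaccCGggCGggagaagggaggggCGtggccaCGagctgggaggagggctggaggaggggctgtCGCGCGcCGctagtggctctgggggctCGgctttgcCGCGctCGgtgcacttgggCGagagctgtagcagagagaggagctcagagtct
Vipr2: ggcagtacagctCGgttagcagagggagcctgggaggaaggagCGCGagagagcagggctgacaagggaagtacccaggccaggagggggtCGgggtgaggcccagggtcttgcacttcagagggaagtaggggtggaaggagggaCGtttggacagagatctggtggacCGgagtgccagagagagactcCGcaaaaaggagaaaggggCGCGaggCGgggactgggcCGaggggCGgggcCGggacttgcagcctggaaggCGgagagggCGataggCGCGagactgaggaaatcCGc
Alox5: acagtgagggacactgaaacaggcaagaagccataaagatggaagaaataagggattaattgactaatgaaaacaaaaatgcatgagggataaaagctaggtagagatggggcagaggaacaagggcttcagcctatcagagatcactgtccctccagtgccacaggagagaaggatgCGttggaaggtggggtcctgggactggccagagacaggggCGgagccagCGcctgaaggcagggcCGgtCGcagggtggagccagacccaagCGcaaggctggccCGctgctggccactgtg
Cd5: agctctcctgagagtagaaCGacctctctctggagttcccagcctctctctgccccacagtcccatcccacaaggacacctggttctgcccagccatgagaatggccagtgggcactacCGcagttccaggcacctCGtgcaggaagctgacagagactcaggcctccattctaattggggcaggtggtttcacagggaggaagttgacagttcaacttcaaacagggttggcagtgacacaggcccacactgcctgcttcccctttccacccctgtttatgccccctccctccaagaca
Cd247: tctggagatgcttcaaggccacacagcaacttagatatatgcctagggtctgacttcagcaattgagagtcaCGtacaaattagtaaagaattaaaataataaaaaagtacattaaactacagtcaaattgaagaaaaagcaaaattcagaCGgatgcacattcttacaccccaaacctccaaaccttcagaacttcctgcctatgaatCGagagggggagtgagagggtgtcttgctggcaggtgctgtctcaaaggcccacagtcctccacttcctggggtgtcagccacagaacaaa
Themis: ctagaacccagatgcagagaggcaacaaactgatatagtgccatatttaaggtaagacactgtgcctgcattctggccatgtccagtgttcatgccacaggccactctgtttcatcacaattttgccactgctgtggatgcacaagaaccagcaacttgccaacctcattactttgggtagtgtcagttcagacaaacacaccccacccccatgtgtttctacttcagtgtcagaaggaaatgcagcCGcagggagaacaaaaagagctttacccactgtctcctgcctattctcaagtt
The Kit promoter holds 20 CpG at 69% G+C and that of Vipr2 18 at 65.3%, while Alox5 holds 7 at 55.7%. The 3 promoters of the Th2 regions hold 3 (Cd5, 57.3% G+C), 3 (Cd247, 43.7%) and 1 (Themis, 47.3%).

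This contrast held over the start sites of all differing regions. The regions called only in ILC2s held 1237 start sites of the RefSeq promoter table, with a median G+C content of 60.7% and a median of 17 CpG. The regions called only in Th2 cells held 45, with medians of 49.3% and 4 CpG. The 10836 start sites in regions called in all 4 libraries had medians of 61.3% and 22 CpG, and the 19883 outside every region 48.3% and 4 CpG. The start sites in ILC2 regions thus resembled those with the mark in both types, and those in Th2 regions resembled those without it, in base composition. For the 503 ILC2 start sites whose regions also differed with equal numbers of peaks, described below, the medians were 61.0% and 18 CpG.

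Short motifs were counted on both strands of these promoters as a description. The GATA motif (AGATAA as well as AGATAG, and with a leading T also TGATAA as well as TGATAG) was in 20.7% of the ILC2 promoters and in 33.3% (15 of 45) of the Th2 promoters, beside 17.4% of the promoters in regions called in all 4, 37.3% of those outside every region and 29.8% of all 32851. The ETS motif (CCGGAAGT or CAGGAAGT) was in 4.93%, 11.1% (5 of 45), 12.9%, 3.97% and 7.07% of the same sets. The RUNX motif (TGTGGT or TGCGGT) lay in at most 22.8% of any set. Of the printed promoters, Alox5 holds 1 GATA match, Cd5 1 RUNX match and Cd247 2 ETS matches. No motif contains another. The sets differ in base composition, which the shares do not take into account.

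The libraries differed in depth and in the share of tags under peaks. The Th2 libraries had 16041895 and 11870820 tags, with 28.7% and 29.3% in peaks by the authors' estimate, and the ILC2 libraries 24945548 and 22830388, with 43.2% and 45.0%. The lists held 14772 and 14721 peaks for Th2 cells and 21380 and 21394 for ILC2s, outside the mitochondrial genome. The tag minimum for a peak was 48 to 100 reads by library, and a count of 48 has a 95% Poisson interval of 35.4 to 63.6 while a count of 100 has 81.4 to 122, both for counting error only. Libraries of a type shared most of the bases under their peaks, with a Jaccard index (shared bases over all bases) of 0.834 for ILC2s and 0.782 for Th2 cells, and pairs across the types reached at least 0.578.

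The sex-linked genes separated the same 2 pairs of libraries. The start sites of 4 Y-linked genes were called in both ILC2 libraries and in none of the other 6 libraries with a peak list. Uty had 231.7 and 224.7 tags, Ddx3y 170.8 and 128.3, Kdm5d 108.2 and 100.3, and Eif2s3y 94.2 and 71.4. A region over Xist, the RNA that silences an X chromosome in female cells, was called in both Th2 libraries (172.7 and 155.0) and in the 4 naive T, spleen and thymus libraries, and in neither ILC2 library. The labels give no sex, so a difference in the sex of the mice cannot be told apart from the difference in cell type in any result below. Common regions on the X chromosome had a median log2 height difference of 0.03 (196 regions), and leaving out chromosomes X and Y left 5341 regions called only in ILC2s against 441 in Th2 cells alone.

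The markers placed the libraries with their labels. Trac, Cd3d and Cd3e, genes of the T cell receptor complex, had higher regions in both Th2 libraries, and the Cd4 region and the start site region of Cd247 were called in these libraries only. Rora, Klrg1, Kit and Arg1, marker genes of ILC2s, had higher regions or regions of their own in both ILC2 libraries. Gata3, which both types need, had 1 tall region in each library. No peak was assigned to Cd79a or Ms4a1 of B cells, Csf1r, Adgre1, Cd68 or Lyz2 of macrophages, Epx, Siglecf, Prg2 or Mcpt4 of eosinophils and mast cells, Ncr1 of natural killer cells, or Sftpc and Scgb1a1 of airway epithelium, in any of the 4 libraries. Other members of these lists had peaks, and their values are given further on.

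ILC2s had far more regions of their own than Th2 cells. Of 23225 regions, 5469 (23.5%) were called only in ILC2s against 450 (1.94%) in Th2 cells alone, while 12621 (54.3%) were called in all 4 libraries. Another 1474 were called in both ILC2 libraries and 1 Th2 library, and 189 in both Th2 libraries and 1 ILC2 library. The surplus went with the number of peaks called. With the 14721 highest peaks of every library, 1568 of 17998 regions (8.71%) were called only in ILC2s against 1393 (7.74%) in Th2 cells alone. The lowest peaks kept then stood at 93.0 and 91.5 tags in ILC2s and at 38 and 34.5 in Th2 cells, so that the equal lists set a higher bar for the ILC2 libraries. Of the regions called in 1 type only, 92.4% were those of ILC2s with whole lists and 53.0% with equal numbers. With peaks of at least 80 tags in every library it was 93.0%. Regions that met the rule both ways numbered 1561 for ILC2s and 447 for Th2 cells.

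**Figure D1:**
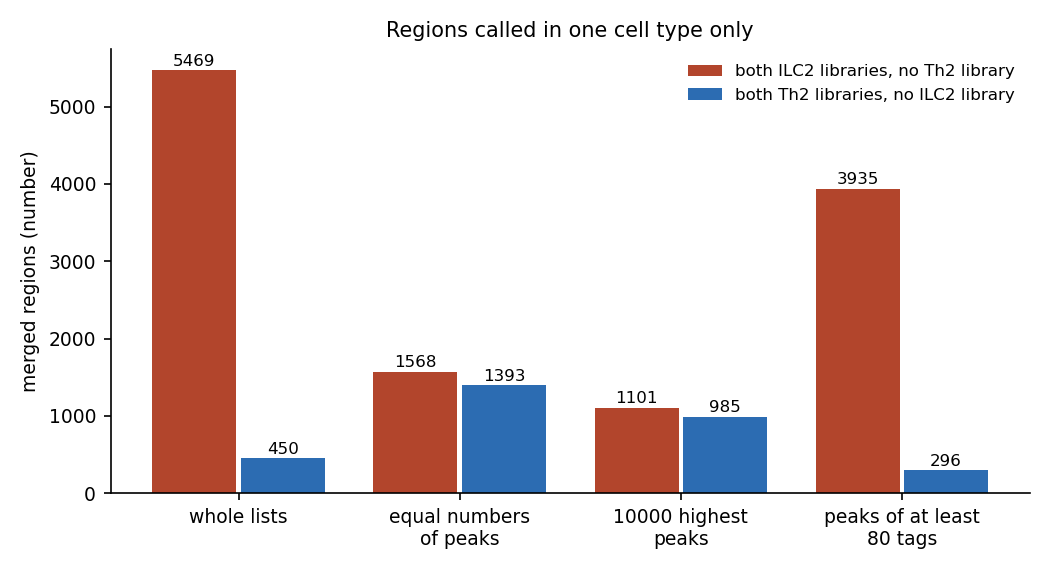
Number of merged regions (vertical axis) called in both libraries of 1 cell type and neither of the other, for whole peak lists, equal numbers of peaks per library, the 10000 highest peaks and peaks of at least 80 normalized tags. The 5469 ILC2 regions stand against 450 Th2 regions with whole lists, and 1568 against 1393 with equal numbers.

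The regions of both types were mostly low and inside or near genes. Regions called only in ILC2s had a median length of 1808 bp and median heights of 77.0 and 77.1 tags. Those called only in Th2 cells had a median length of 1872.5 bp and heights of 71.7 and 71.6. A start site lay in 18.1% of the ILC2 regions and 8.22% of the Th2 regions, beside 58.4% of the regions called in all 4. At 4 times the authors' minimum, 160 tags in the lower library, 481 ILC2 and 56 Th2 regions were left, and at 400 tags 49 and 14.

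Most regions called only in Th2 cells had a peak in at least 1 other CD4+ library. Of the 450 Th2 regions, 84.4% had a peak in the lavage library labelled naive T, 58.7% in its lymph node library, 54.4% in spleen CD4+ cells and 33.6% in thymus. Of the 5469 ILC2 regions, the shares were 21.3%, 46.1%, 42.3% and 39.2%. Over all 23225 regions they were 67.3%, 72.6%, 70.7% and 66.1%. The Th2 regions thus lay above the share over all regions in the lavage naive T library only, and the ILC2 regions in none. No peak in any of these 4 libraries was found at 46.2% of the ILC2 regions and 10.4% of the Th2 regions, beside 20.3% of all regions. Among the regions of at least 400 tags, 51.0% of the ILC2 regions and 0% of the 14 Th2 regions had none. These libraries hold T cells and have their own depths, and no test was made of the shares.

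Among the tallest regions called only in ILC2s were a T cell receptor gamma constant gene, a regulator of G protein signalling, an axon guidance gene, the arginase gene and Kit. The region over Trgc4 (chr13:19335160-19359519) reached 2189.2 and 1906.2 tags and also had a peak in thymus (345.7) and in the lavage naive T library (75.2). The region over Rgs18 reached 1259.1 and 1109 tags, and that over Sema6d, a semaphorin, 1190.2 and 987.3. The region 22.9 kb from Arg1, whose product breaks down arginine and which marks lung ILC2s, reached 908.8 and 1107.7. A region on chromosome 2 with no gene within 100 kb (chr2:9172856-9181822) reached 873.9 and 1015.3, and the Kit start site region 852.7 and 856.8. Of these 6, the regions at Rgs18, Sema6d, Arg1 and on chromosome 2 had no peak in any of the other 6 libraries, and Kit had one in thymus (193.3).

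The 6 tallest regions called only in Th2 cells lay at Cd5, Cd247, Themis, Cd4, Cd40lg and Lclat1. Cd5 reached 1882.6 and 1929.1 tags, Cd247 1345.9 and 1374.8, and Themis 1092.8 and 992.3. Cd4, the coreceptor that binds MHC class II, reached 843.4 and 840.7, and Cd40lg, the ligand through which helper T cells license B cells, 905.1 and 826.4. Lclat1, a gene of cardiolipin remodelling, reached 716.9 and 700. All 6 had taller peaks still in 1 or more of the naive T, spleen and thymus libraries, and Cd40lg and Lclat1 had none in thymus.

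**Figure D2:**
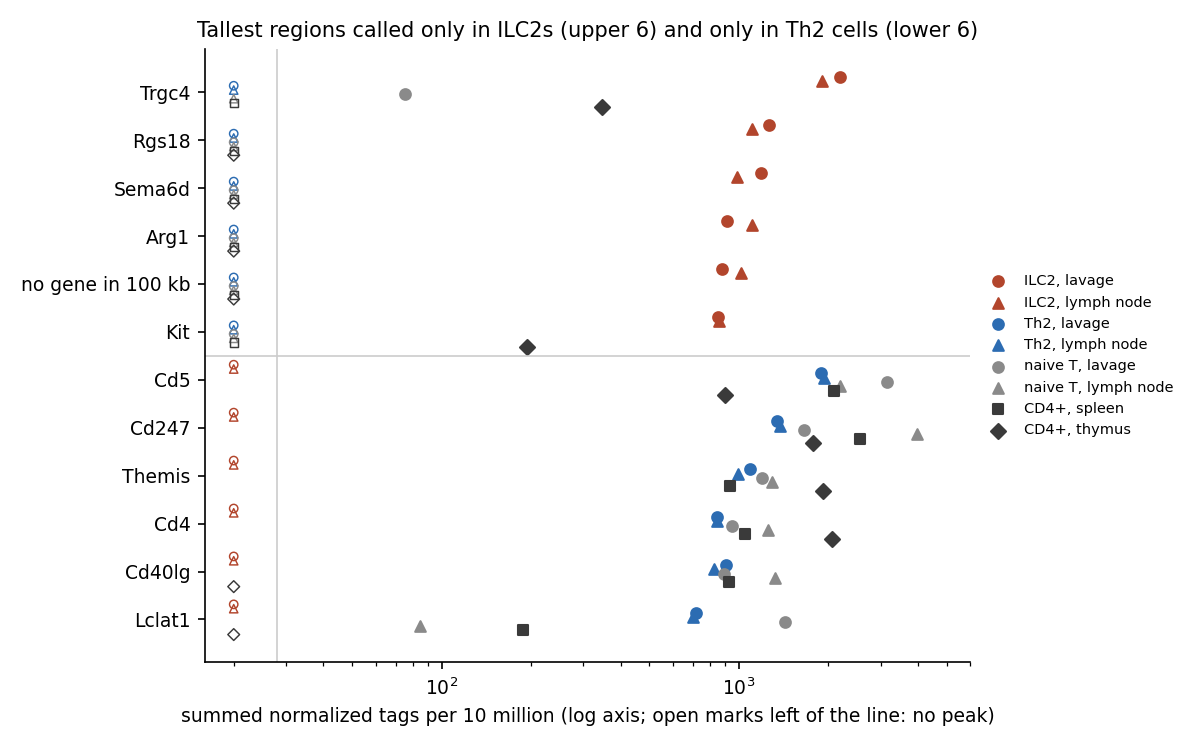
Summed normalized tags per 10000000 (horizontal log axis) in 8 libraries at the 6 tallest regions called only in ILC2s and the 6 called only in Th2 cells, with open marks where a library had no peak. Kit stands at 852.7 and 856.8 in ILC2s with no Th2 peak, and Cd5 at 1882.6 and 1929.1 in Th2 cells with no ILC2 peak.

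At the 12621 regions called in all 4 libraries, the heights were compared with limma on log2(tags + 1), each library centred on its median over these regions, and a region was called at a Benjamini-Hochberg adjusted p under 0.05. Differences are ILC2 minus Th2 on that log2 scale. By this fit 1087 regions (8.61%) were higher in ILC2s and 1172 (9.29%) lower, with 593 and 393 of them differing by 1 or more. Every called region had the same sign in lavage and in lymph node. The call sets the mean over both sites against the spread between these libraries, so this agreement is largely built in and is no separate test. Without the centring, 4931 were higher and 420 lower, so the higher share of calls went from 48.1% to 92.2%. The centre of the ILC2 libraries lay 0.45 above that of the Th2 libraries, and every difference below is relative to it. With the naive T libraries added to the fit, 207 of 11750 regions were higher and 137 lower. Of the 89 calls followed by gene, 72 could then be fitted and 46 were lost. The 26 kept were those at Il17rb and Chdh, Ikzf1, Ahcyl2, Mgat5, Lmo4, Hpgds, Bcl11b, Notch1, Trac, Cd3d, Cd3e, Lck, Zc3h12d, Cd2, Cd28, Lat, Prkcq, Ubash3a, Thy1, Btla, Cd200, Foxp1, Bach2, Prkch, Prkca and Tiam1.

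Height went with the length under called peaks. Of the 1087 regions higher in ILC2s, 1083 had a longer called length in both ILC2 libraries than in either Th2 library, with medians of 4.66 and 1.96 kb. Of the 1172 lower regions, 966 were longer in both Th2 libraries, with medians of 4.22 kb in ILC2s and 5.75 kb in Th2 cells. Over all common regions, 48.3% were longer in both ILC2 libraries and 14.2% in both Th2 libraries. Per kilobase of called peak, 540 regions were higher and 766 lower. Of the regions called by summed tags, 305 and 488 were also called this way, and 262 of the higher and 103 of the lower ones had the opposite sign. A call by height below is therefore one of the tags summed over a domain, and the value per kilobase is given where it ends the call or turns the sign.

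**Figure D3:**
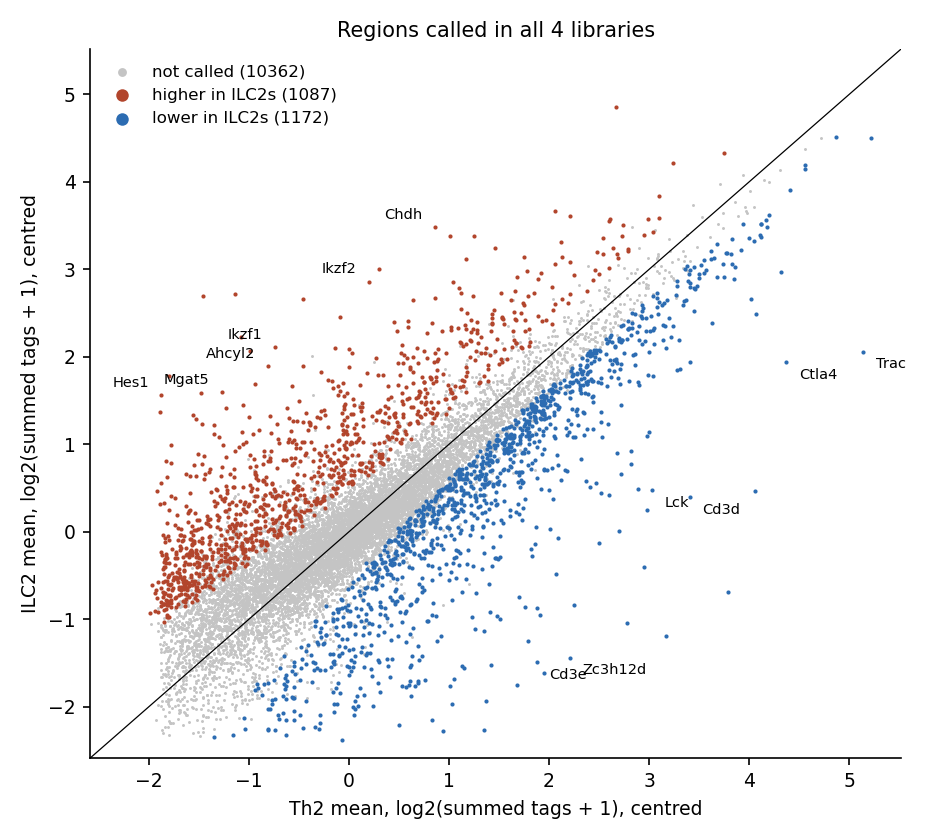
Mean centred log2(summed tags + 1) of the 2 ILC2 libraries (vertical) against that of the 2 Th2 libraries (horizontal) at the 12621 regions called in all 4, with the line of equality. The 1087 higher and 1172 lower regions lie on either side of it, with Hes1 and Ikzf1 far above and Trac and Cd3d far below.

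The higher regions with the smallest p lay at genes for a cytokine receptor, zinc finger factors and a Notch target. The region over the start sites of Il17rb and Chdh (chr14:30003546-30030418) had 2250.5 and 2339 tags in ILC2s against 259.3 and 285.6 in Th2 cells. IL17RB is the receptor chain for the alarmin IL-25. Its difference was 2.62 ± 0.08 (SE, n = 2 libraries per type; limma, adjusted p = 0.000959), with 26.27 and 26.87 kb called in ILC2s and 5.28 and 6.25 kb in Th2 cells. Hes1, a repressor induced by Notch, had 590.1 and 621.5 against 38.6 and 41.3 tags, a difference of 3.44 ± 0.13 (limma, adjusted p = 0.000959). A region 13.2 kb from Ikzf1, which encodes the lymphoid factor Ikaros, had 841.4 and 934.3 against 89.8 and 88.5 tags and a difference of 2.85 ± 0.10 (adjusted p = 0.000959). Per kilobase its sign turned, to -0.10 (adjusted p = 0.53), as its called length was 15.78 and 16.27 kb in ILC2s and 1.85 and 1.79 kb in Th2 cells. Ikzf2 (Helios, 2.66), Ahcyl2 (2.71) and Mgat5, an enzyme of glycan branching (2.87), completed the 6, at adjusted p = 0.000974 or less. In a fit with the naive T libraries added, the calls at Hes1 (adjusted p = 0.098) and Ikzf2 (adjusted p = 0.29) were lost.

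The 6 lower regions with the smallest p lay at Trac, Cd3d, Cd3e, Lck, Zc3h12d and Ctla4. The region over Trac, the alpha chain constant gene (chr14:54172323-54235546), had 846.7 and 860.6 tags in ILC2s and 5340.4 and 5281.9 in Th2 cells. Its difference was -3.09 ± 0.08 (limma, adjusted p = 0.000562), and 63.22 and 62.98 kb were called in Th2 cells beside 15.27 and 14.18 kb in ILC2s. The region over the Cd3d and Cd3g start sites had 264.1 and 275.1 against 1559.7 and 1634.3 tags, a difference of -3.01 ± 0.08. Cd3e had 65.7 and 78.8 against 562.3 and 541.7 (-3.37), and Lck, the kinase that starts receptor signalling, 275.4 and 295.2 against 1173.2 and 1275.4 (-2.55). Zc3h12d, an RNA-decay gene, differed by -3.65, and Ctla4, the inhibitory receptor, by -2.43. All 6 had an adjusted p of 0.000959 or less by limma. The call was kept per kilobase at all of them but Ctla4 (-0.16, adjusted p = 0.35), which was also the one lost in the fit with the naive T libraries added (adjusted p = 0.22).

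**Figure D4:**
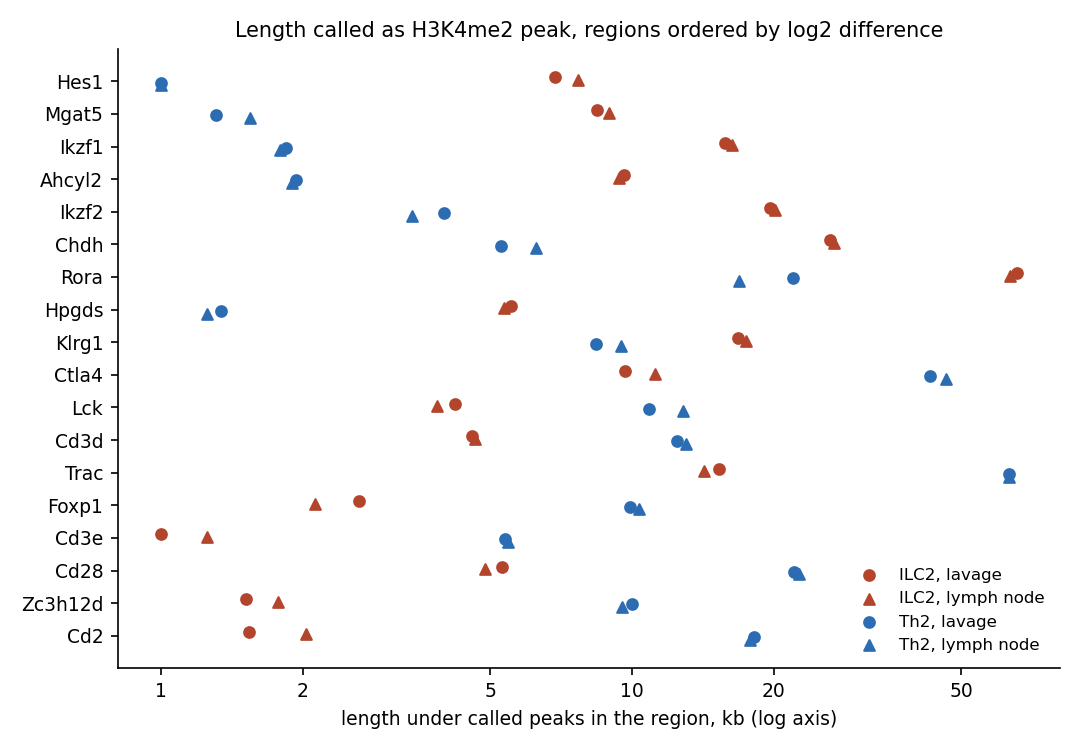
Length under called peaks in kb (horizontal log axis) in the 4 libraries at 18 common regions ordered by their log2 height difference. ILC2 marks lie to the right of Th2 marks from Hes1 to Klrg1, and to the left from Ctla4 to Cd2.

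Genes were then followed in lists by role, and each list's counts are set beside the shares over all regions given above. Il4, Il5 and Il13 each had 1 region, called in all 4 libraries, while other members of the type 2 cytokine list had regions in 1 cell type only. Of 32 regions assigned to the 11 members, 10 (31.3%) were called only in ILC2s against 1 in Th2 cells alone, or 4 and 1 of 28 with equal numbers. Of the 15 common regions, 5 were higher and 3 lower, with a median difference of 0.22 beside -0.02 over all common regions, and without centring 10 and 2. Il13 had 1140.9 and 1071.8 tags in ILC2s and 961.2 and 739.6 in Th2 cells, a difference of -0.06 ± 0.15 (limma, adjusted p = 0.81). The region of Il5, which lay 6.2 kb outside the gene, had 369.6 and 424.9 against 283 and 315.9 (-0.04, adjusted p = 0.80). Neither passed the test, which does not show that they were equal, and without centring they stood at 0.39 and 0.41. Il4 had 478.6 and 507.7 against 495 and 551.8, a difference of -0.53 (adjusted p = 0.018) that was lost per kilobase (-0.13), without centring (-0.08) and without either ILC2 library (adjusted p = 0.11 and 0.10).

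Il6, Csf2, Il9 and Il2 leaned to ILC2s and Il10 to Th2 cells. The Il6 gene region had 665 and 662.3 tags in ILC2s and 143.4 and 143.2 in Th2 cells (1.75, adjusted p = 0.0013), and per kilobase the difference was 0.31 (adjusted p = 0.052). A second region 72.0 kb from Il6, an inflammatory cytokine gene, had 388.8 and 598.3 against 47.4 and 59.8 (2.71). Between 56.3 and 86.9 kb from Il6, 3 more regions were called only in ILC2s, the tallest at 378 and 455.5 tags. Csf2, the GM-CSF gene, had 3 regions called only in ILC2s, 6.4 to 53.6 kb outside the gene and up to 181.6 and 95 tags. A common region 31.0 kb from Csf2 had a difference of 0.97 (adjusted p = 0.014). The region over the Csf2 start site had 507.9 and 481.8 tags in ILC2s. It also had a peak in the lymph node Th2 library (57.3), so it counted neither as ILC2 only nor as common. Il9 had 2 regions called only in ILC2s, the taller at 88.2 and 129.2 tags. The Il2 region had 443 and 405.6 tags against 137.1 and 75 (1.60, adjusted p = 0.022). The calls of Csf2 and Il2 were lost without either ILC2 library, at adjusted p from 0.061 to 0.15. At Il10, an anti-inflammatory cytokine gene, the region over the gene had 240.1 and 176 tags in ILC2s and 911.3 and 1042.1 in Th2 cells (-2.69, adjusted p = 0.0019). The region 15.3 kb away had 305.5 and 297.8 against 774.2 and 887 (-1.90), which per kilobase was 0.05.

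Receptors for alarmins and type 2 cytokines included Il1rl1, Il7r and the IL-18 receptor genes, with taller regions in ILC2s. Of 32 regions, 3 were called only in ILC2s against 2 in Th2 cells alone, and 2 and 3 of 30 with equal numbers. Of 21 common regions, 5 were higher and 4 lower, 4 and 1 per kilobase, and 11 and 1 without centring. No region was assigned to the members Il17rb, Il13ra1 and Tnfrsf25. The region over the Il17rb start site, given above, was assigned to Chdh and is not in these counts. Il1rl1 encodes the receptor for IL-33, and its main region (chr1:40422920-40448385) had 2998.1 and 2893.1 tags in ILC2s and 1512.3 and 1089.2 in Th2 cells (0.75, adjusted p = 0.040). The neighbouring region had 454.2 and 457.3 against 177.7 and 119.6 (1.19), which was -0.10 per kilobase. Next to it, the IL-18 receptor genes followed the same way, with 530.8 and 414.8 against 159.6 and 104.5 at Il18r1 (1.40) and 742.4 and 644.3 against 311.7 and 224.1 at Il18rap (0.93). Per kilobase the Il18r1 call was lost (0.17, adjusted p = 0.33). Each of these 2 genes also had 1 region called only in ILC2s, at 330.7 and 325 tags and at 174.4 and 150.7. Il7r, the chain shared by the receptors of IL-7 and TSLP, had 2362.7 and 2569.4 against 1290.4 and 1278.8 (0.49, adjusted p = 0.016). A region 21.5 kb from Icos, a costimulatory receptor of both types, was lower (-0.95, adjusted p = 0.015), and per kilobase it was not called (-0.16, adjusted p = 0.32). Of these calls, that of Il18r1 was lost without the lavage ILC2 library and the others without either ILC2 library. The start site region of Crlf2, the other chain of the TSLP receptor, was lower, at 192.8 and 200.2 against 208.8 and 224.9 (-0.59, limma, adjusted p = 0.026). It was not followed per kilobase or with libraries left out.

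Genes of ILC2 identity, among them Rora, Kit and Arg1, had regions in ILC2s that Th2 cells lacked. Of 94 regions of this list, 34 (36.2%) were called only in ILC2s against 4 in Th2 cells alone, or 17 and 5 of 71 with equal numbers. Of 33 common regions, 12 were higher and 4 lower, 6 and 1 per kilobase, and 22 and 1 without centring. The list also names Il17rb, whose start site region was assigned to Chdh and is not in these counts. Rora encodes a nuclear receptor that ILC2s need to develop. Its largest region (chr9:69288223-69354040) had 5787.8 and 6074.8 tags in ILC2s and 1121.6 and 808.7 in Th2 cells, over 65.58 and 63.39 kb and 21.94 and 16.89 kb. The difference was 2.19 ± 0.17 (limma, adjusted p = 0.0025), a call lost with the naive T libraries added (2.21, adjusted p = 0.20). A further 11 regions inside Rora were called only in ILC2s, from 38.9 to 244.9 tags in the lower library. Kit had 7 regions called only in ILC2s and no other, of which those of 361.2 and 485.8 tags and of 386 and 414.4 lay within the gene. Arg1 had 3 such regions, and the one over the gene reached 823.4 and 765.2.

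Other ILC2 genes were higher at common regions. Klrg1, a lectin-like inhibitory receptor, had 1553 and 1697.7 tags against 462.5 and 574.6 (1.20, adjusted p = 0.0040), and Tox, a factor of innate lymphoid development, 1440.7 and 1526 against 215 and 443.9 (1.81). Gfi1, which upholds the ILC2 programme, had a region 12.2 kb away at 348.8 and 375.4 against 137.2 and 108.6 (1.11), which was 0.02 per kilobase. Pparg, a lipid-sensing nuclear receptor, had 2 higher regions (0.90 and 1.32) and 1 lower region (-0.90), none of them called per kilobase, and 2 regions called only in ILC2s. Gata3 had 3460.7 and 3461.6 against 2198 and 2411 tags, a difference of 0.14 ± 0.09 (adjusted p = 0.31) that was 0.59 without centring (adjusted p = 0.0097). Bcl11b, a factor of both ILC2 and T cell commitment, had a region inside the gene at 609.3 and 713.1 against 975.6 and 990.7 (-1.03, adjusted p = 0.0035). Its longest region was also lower (-0.52, limma, adjusted p = 0.024). The region over its start site, at 1544.2 and 1564.1 against 1423.1 and 1374, was not called (-0.30, adjusted p = 0.059). A low region 18.4 kb away was called only in ILC2s (39.3 and 63.9).

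Factors of the innate lymphoid precursor followed, with 28 of 93 regions called only in ILC2s against 6 in Th2 cells alone, a list that shares Rora, Tox, Gata3, Id2, Nfil3 and others with the one before. With equal numbers the counts were 12 and 9 of 66, and of 30 common regions 5 were higher and 2 lower, or 16 and 1 without centring. Lmo4, a LIM-domain cofactor, had 1227.5 and 1092 tags against 335.4 and 342 (1.32, adjusted p = 0.0026) and 3 regions called only in ILC2s, the tallest at 274.2 and 320.6. Id2, the inhibitor that lets innate lymphocytes form, had 2 regions called only in ILC2s, 45.3 and 67.5 kb away (252.6 and 293.5, and 130.7 and 116.5), and Nfil3, which acts upstream of it, had 2 (the taller 157.1 and 137.5). Ets1 had 3 regions called only in Th2 cells, of which 1 had 140.9 and 166. At Tcf7, which encodes TCF-1, the start site region had a peak in both ILC2 libraries (133.9 and 115.2) and in neither Th2 library. Ikzf2 carried changes of opposite sign inside 1 gene. Its region at chr1:69653329-69673448 was higher (1471.6 and 1507.2 against 185.8 and 158.4), and its region at chr1:69542152-69554555 was lower (180.4 and 194 against 748 and 957.8, -2.62, adjusted p = 0.0011), and this call too was lost with the naive T libraries added (adjusted p = 0.16).

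Genes for lipid, nerve and hormone mediators had regions of their own in ILC2s and none in Th2 cells. Of 41 regions, 18 (43.9%) were called only in ILC2s against 0 in Th2 cells alone, and 9 (29.0%) and 0 of 31 with equal numbers. Of 14 common regions, 9 were higher and 0 lower, with a median of 0.84, and 3 were called higher per kilobase. The Vipr2 start site region had 629.4 and 647.4 tags in ILC2s, with 2 more ILC2 regions of 286.6 and 217.7 and of 162 and 151.1. The Alox5 start site region had 410.9 and 603.6 and the region next to it 223.7 and 287.3. Calcrl and Ramp1 encode the chains of the receptor for the neuropeptide CGRP. Ramp1 had 556.8 and 517.7 tags against 190.8 and 179.4 (1.08, adjusted p = 0.0047), and Calcrl 1155.3 and 1170.4 against 519.3 and 467.5 (0.79) with 3 more regions called only in ILC2s.

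The neuromedin U receptor and 2 prostaglandin genes were part of the same list. Nmur1, through which neurons activate ILC2s, had 285.4 and 364.9 tags against 38.6 and 76.7, a difference of 2.10 ± 0.33 (adjusted p = 0.014) that was lost without the lymph node ILC2 library (adjusted p = 0.060). Hpgds, the synthase of prostaglandin D2, had 341.1 and 316.2 against 62.3 and 50.5 (2.08, adjusted p = 0.0031), and Ptgir, the prostacyclin receptor, 653 and 675 against 213.2 and 254.4 (1.06). Per kilobase, Hpgds (0.20), Ptgir (0.16) and Calcrl (0.22) were no longer called. Nr3c1, the glucocorticoid receptor gene, had 3 low regions called only in ILC2s, the tallest at 109.8 and 141.

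Genes of Th2 identity had regions of both types. Of 41 regions, 7 (17.1%) were called only in ILC2s against 2 in Th2 cells alone, and 3 and 3 of 37 with equal numbers. Of 29 common regions, 7 were higher and 3 lower, 1 and 1 per kilobase, and 16 and 1 without centring. The list shares Gata3, Il4, Il1rl1 and Pparg with those above. A region 15.5 kb from Irf4, a factor that lymphocyte receptors induce, had 233.7 and 273.3 tags against 61.7 and 74.1 (1.44, adjusted p = 0.0061), which was 0.01 per kilobase. Notch1 had 517.1 and 445.5 against 706.3 and 693.3 (-0.99, adjusted p = 0.0062), also not called per kilobase (-0.35). Ccr8, a chemokine receptor of both cell types, had 856.3 and 861.1 tags over the gene in ILC2s and 647.1 and 489.4 in Th2 cells, and Ccr4 771.7 and 846.7 against 548.5 and 348.8, neither of them called. The region near Maf, a factor that drives Il4 and Il10, had 55.3 and 68.8 against 94.1 and 64.9 (-0.79, adjusted p = 0.10), and a second was called only in Th2 cells (107.8 and 80.9).

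The T cell receptor complex had taller regions in Th2 cells at Trac and the Cd3 genes, while regions at the delta and gamma constant genes were called only in ILC2s. Of 6 common regions of the complex, 3 were lower in ILC2s and 0 higher, and without centring 3 and 2. The summed tags of the list were 5366 and 6040.1 in ILC2s and 11170.8 and 11146.7 in Th2 cells. Of 16 regions, 4 (25%) were called only in ILC2s, near the 23.5% over all regions, and 1, Cd247, only in Th2 cells. Trdc, the delta chain constant gene, accounted for 3 of the ILC2 regions. The region over it had 198 and 226.9 tags, and those 2.5 and 64.2 kb away had 275.4 and 341.6 and 479 and 473.9. Thymus had peaks at the first and the second of these (47.3 and 180.7). The gamma constant gene Trgc4, given above, is not on the list. Reads from near-identical gamma constant genes may have been placed on any of them.

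Signalling genes downstream of the receptor held the largest count of Th2 regions on any list. Of 67 regions, 18 (26.9%) were called only in Th2 cells against 6 in ILC2s alone, or 21 and 2 of 60 with equal numbers. Of 30 common regions, 13 were lower and 0 higher in ILC2s, and 7 and 3 without centring. Cd6, a partner of Cd5, had 5 regions and all 5 were called only in Th2 cells, the tallest at 572.3 and 608.2 tags. Cd2, an adhesion receptor of T cells, had 71 and 110.4 tags in ILC2s and 1373.3 and 1334.4 in Th2 cells over 1.54 and 2.03 and 18.14 and 17.82 kb (-4.37 ± 0.20, adjusted p = 0.00097). Lat, the scaffold that the receptor kinases phosphorylate, had 161.6 and 149.4 against 430.1 and 380.8 (-1.83), and a second region called only in Th2 cells (329.8 and 355.5). Sh2d1a, the adaptor SAP, had 1 region called only in Th2 cells at 498.1 and 516.4. Prkcq, the protein kinase C of the immune synapse, had 1102.5 and 1201.9 against 2414.3 and 2638.4 (-1.58).

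Not all receptor signalling genes differed that far. Zap70, the kinase recruited to the zeta chain, had 1037.9 and 917.2 tags in ILC2s and 1008.6 and 1117.9 in Th2 cells, a difference of -0.57 (adjusted p = 0.024) that was lost without centring (-0.12) and without the lymph node ILC2 library (adjusted p = 0.14). Fyb, an adaptor of adhesion, had 1938.6 and 2339 against 2465.5 and 2753 (-0.74), lost without centring (-0.29), per kilobase (-0.19) and without the lavage ILC2 library (adjusted p = 0.075). Ubash3a, a phosphatase that dampens the receptor, differed by -1.15 (adjusted p = 0.0025). Rasgrp1, which links the receptor to Ras, had regions on both sides, 3 called only in Th2 cells (up to 211.9 and 317.6) against 2 in ILC2s alone (up to 184 and 198.9). The Tec family kinase gene Txk had its start site region called only in ILC2s, at 261.4 and 227.3.

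Coreceptors and T lineage factors were lower in ILC2s at common regions, 12 of 24 with 0 higher, and 8 with 1 higher without centring. By presence 9 of 44 regions (20.5%) were in ILC2s only, near the 23.5% over all regions, against 2 in Th2 cells alone. With equal numbers they were 2 and 7 of 33. Cd28, the main costimulatory receptor, had 327.9 and 243.5 tags in ILC2s and 2426.1 and 2576.1 in Th2 cells (-3.59 ± 0.17, adjusted p = 0.00097), with a second region called only in Th2 cells (573.5 and 687.4). A region 18.6 kb from Thy1 had 58.5 and 60.4 against 296.7 and 308.3 (-2.78), which was -0.12 per kilobase and then not called. Zbtb7b, the factor that commits thymocytes to the CD4+ lineage, had 689.9 and 701.7 against 978.1 and 955.3 (-0.92), and per kilobase -0.21. Satb1, a chromatin organiser of T cells, differed by -1.18 and Cd27 by -0.91. Lef1 differed by -0.75 (adjusted p = 0.010), a call lost without centring (-0.30), per kilobase (-0.28) and without the lymph node ILC2 library (adjusted p = 0.052).

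Costimulation and checkpoint genes had more and taller regions in Th2 cells. Of 48 regions, 12 were called only in Th2 cells against 1 in ILC2s alone, and 17 and 0 of 46 with equal numbers. Of 25 common regions, 13 were lower and 2 higher, and 10 and 2 both without centring and per kilobase. At Ctla4, 809.4 and 763.5 tags in ILC2s stood against 2949.2 and 3283.7 in Th2 cells, with 3 more regions called only in Th2 cells, the tallest at 408.3 and 493.6. Lag3, a checkpoint receptor, had 380 and 216.8 against 1081.5 and 1136.4 (-2.40, adjusted p = 0.0058), and Btla, another, 263.4 and 293.5 against 808.5 and 921.6 (-2.08). Tigit differed by -1.35 and had 2 regions called only in Th2 cells. Slamf1, an adhesion and signalling receptor, had 3 regions called only in Th2 cells, the start site region at 685.1 and 495.3. Tnfrsf18 (GITR) differed by -1.07 and Tnfrsf9 (4-1BB) by -1.04, the latter not called per kilobase (-0.20). Cd226, an activating receptor, went the other way, with 1731 and 1979.8 tags against 913.9 and 828.9 (0.64, adjusted p = 0.014), a call lost without the lymph node ILC2 library (adjusted p = 0.087).

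**Figure D5:**
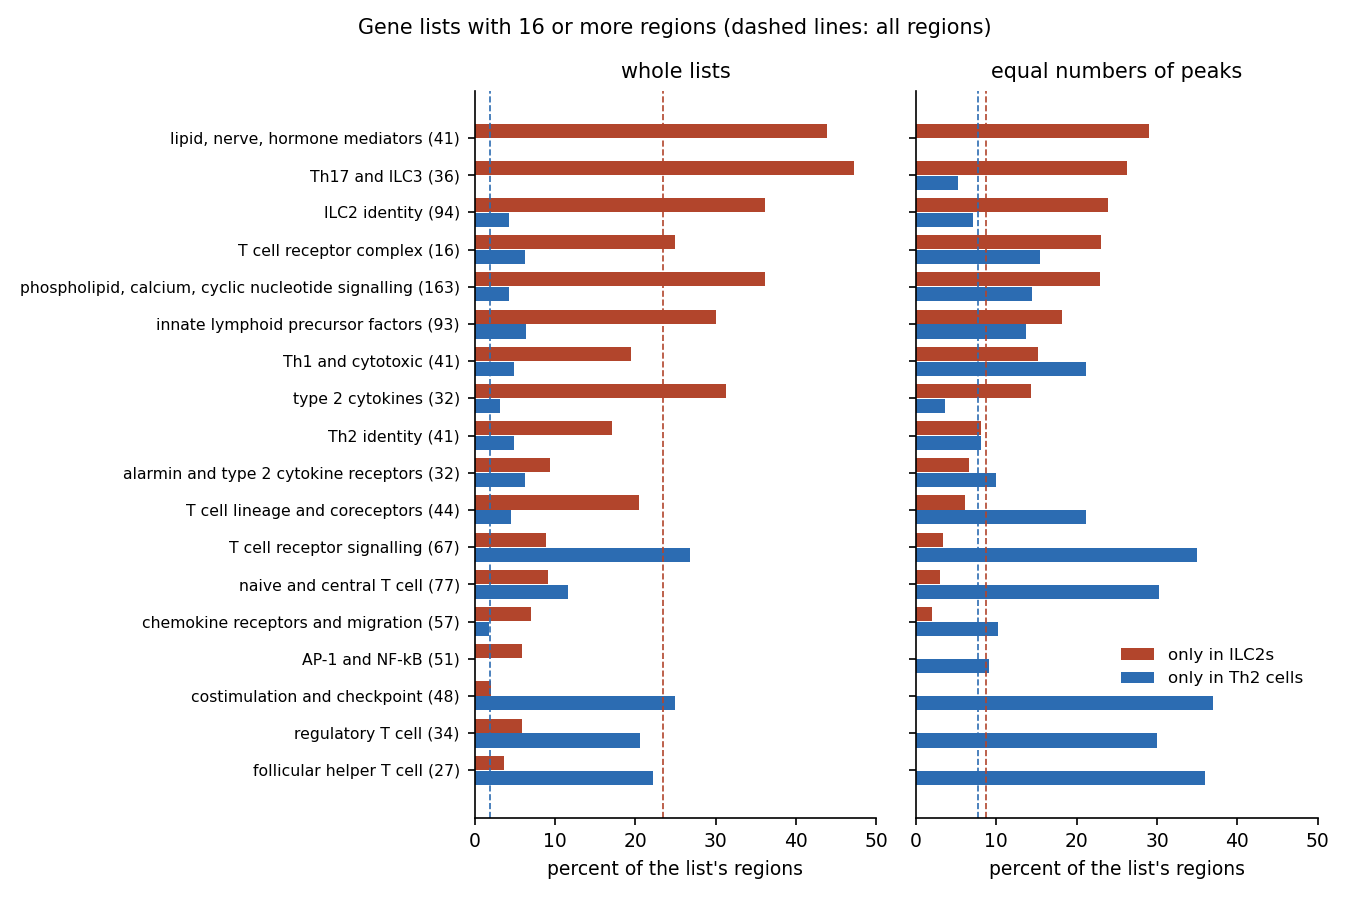
Percent of each list's regions called only in ILC2s or only in Th2 cells (horizontal axes), with whole peak lists on the left and equal numbers of peaks on the right, for lists of 16 or more regions (number in parentheses, whole lists). Dashed lines mark the shares over all regions, 23.5% and 1.94% on the left and 8.71% and 7.74% on the right.

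Follicular helper and regulatory T cell genes also had more regions in Th2 cells. On the follicular helper list, 6 of 27 regions (22.2%) were called only in Th2 cells against 1 in ILC2s alone, and 9 and 0 of 25 with equal numbers. Of 16 common regions 2 were higher and 3 lower, or 7 and 1 without centring. Il21, the cytokine that helps B cells, had 2 Th2 regions, of which the one over the start site had 413.9 and 256.1 tags and the other 180.8 and 43.8. Izumo1r, the folate receptor 4 gene, had 2, the start site region at 365.3 and 404.4. Cd200 differed by -1.32 (adjusted p = 0.0091), lost without the lavage and without the lymph node ILC2 library (adjusted p = 0.051 and 0.068). A region 17.1 kb from Cxcr4 was higher (1.06, adjusted p = 0.020), a call lost in the same way (differences of 1.15 and 0.96). The taller region over the Cxcr4 start site was not called (-0.09, limma, adjusted p = 0.61). On the regulatory list, 7 of 34 were called only in Th2 cells against 2 in ILC2s alone, with 0 and 9 of 30 for ILC2s and Th2 cells with equal numbers, and of 16 common regions 1 was higher and 5 lower, or 4 and 5 without centring. The members that moved were largely Ctla4, Izumo1r, Il10, Tnfrsf18 and the lower region of Ikzf2, shared with other lists. No region was assigned to Foxp3, the defining gene of regulatory T cells.

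Genes of naive and central T cells were lower at 15 of 38 common regions and higher at 3, or at 9 and 6 without centring. Of 77 regions, 9 (11.7%) were called only in Th2 cells against 7 in ILC2s alone, and 20 and 2 of 66 with equal numbers. Foxp1, a factor that holds T cells quiescent, had 7 regions called only in Th2 cells against 0 in ILC2s alone, the tallest at 234.4 and 288.9 tags. A common region inside the gene had 135.1 and 95.9 in ILC2s and 706.9 and 724.5 in Th2 cells (-3.09, adjusted p = 0.0018). Bach2, a repressor of effector genes, differed by -1.97. Klf2 differed by -0.86, lost without the lymph node ILC2 library (adjusted p = 0.060), and S1pr1, the receptor for lymph node egress, by -0.69, lost without centring (-0.24) and without the lavage ILC2 library (adjusted p = 0.070). A region 10.7 kb from Ccr7 went the other way, with 184.8 and 185.3 against 61.7 and 64.9 (1.08, adjusted p = 0.011), lost without the ILC2 library of the lavage (0.11) or of the lymph node (0.10).

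The Th1 list had regions of both types, and Rora held most of the ILC2 regions on the Th17 list. On the Th1 and cytotoxic list, 8 of 41 regions (19.5%) were called only in ILC2s against 2 (4.88%) in Th2 cells alone. The shares over all regions were 23.5% and 1.94%. With equal numbers 5 (15.2%) and 7 (21.2%) of 33 were, beside 8.71% and 7.74% over all regions. Of 18 common regions, 3 were higher and 1 lower, or 8 and 0 without centring. At Fasl, the death ligand gene, the start site region was called only in Th2 cells (259.3 and 276.3), while 4 regions 66.7 to 91.0 kb away were called only in ILC2s, the tallest at 832.6 and 477.4. The start site region of Eomes was called only in ILC2s (175.2 and 130.1). Stat4, the signal transducer of IL-12, had 292.6 and 279.5 against 140.3 and 131.4 (0.62, adjusted p = 0.029), lost without the ILC2 library of the lavage (0.25) or of the lymph node (0.17). On the Th17 and ILC3 list, 17 of 36 regions (47.2%) were called only in ILC2s against 0 in Th2 cells alone, of which Rora held 11 and Il17a, the IL-17A gene, 3 low ones of at most 83 tags. With equal numbers they were 5 and 1 of 19. Its 11 common regions held 3 higher and 3 lower, or 5 and 1 without centring. Ahr, the aryl hydrocarbon receptor gene, had 2 low regions called only in ILC2s and 4 called common regions, of which 3 were lower. Those 17.2 and 37.2 kb away differed by -1.39 (adjusted p = 0.027) and -0.99 (adjusted p = 0.030), and that 61.8 kb away by 1.29 (adjusted p = 0.0086). The region over the gene differed by -0.54 (adjusted p = 0.025), which was lost without centring (-0.09), per kilobase (-0.10) and without either ILC2 library (adjusted p = 0.057 and 0.15).

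Chemokine receptor and integrin genes went both ways. Of 57 regions, 4 were called only in ILC2s against 1 in Th2 cells alone, while with equal numbers 1 and 5 of 49 were. Of 36 common regions 7 were higher and 6 lower, and without centring 14 and 3. The region 24.9 kb from Ccr2, the receptor for monocyte chemoattractants, had 182 and 206.3 tags in ILC2s and 617.1 and 660.4 in Th2 cells (-2.16, adjusted p = 0.00097). This call was lost with the naive T libraries added (adjusted p = 0.17). The taller region over the Ccr2 start site had 1328.9 and 1655.3 against 1203.1 and 1107.8 and was not called (-0.09, limma, adjusted p = 0.64). Ccr1 differed by -0.90, which was -0.10 per kilobase. The integrin genes went the other way, with 2436.1 and 2469.5 against 1174.4 and 1211.3 at Itga4 (0.59) and 1326.1 and 1378.9 against 717.5 and 668.9 at Itgb7 (0.51), both lost without either ILC2 library (adjusted p from 0.062 to 0.10), and Itga4 also per kilobase (0.11, adjusted p = 0.38). Of 6 common regions at killer lectin receptor genes, 4 were higher and 0 lower, and 1 per kilobase. Clec2i, whose product is a ligand in this family, had 382.8 and 464.3 against 112.2 and 169.3 (1.16, adjusted p = 0.021), lost per kilobase (0.38) and without either ILC2 library (0.053 and 0.10). Of the 8 regions of this killer lectin list, 2 (25%) were called only in ILC2s, near the 23.5% over all regions. These were 1 each at Klrb1f and Klrk1 (184 and 150.2, and 145.9 and 73.1).

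Genes of the AP-1 and NF-kB factors, which antigen and alarmins induce alike, were lower in ILC2s at 12 of 37 common regions and higher at 1, but at 5 and 6 without centring. Fosb had 293.4 and 302.7 tags against 373.4 and 441.4 (-0.89, adjusted p = 0.0073), Jund -0.89, and a region 52.2 kb from Nfkbiz -1.16. Nfkb1 had 3891.7 and 4374.4 against 2102.6 and 1952.7 (0.58, adjusted p = 0.016), lost without the ILC2 library of the lavage (0.077) or of the lymph node (0.13). By presence, 3 of 51 regions were called only in ILC2s against 0 in Th2 cells alone, but 0 and 4 of 44 with equal numbers. On the housekeeping list none of 11 regions was called in 1 type only with whole lists, and 2 of 11 only in Th2 cells with equal numbers. Of its 9 common regions, 2 were lower and 0 higher, and 0 and 3 without centring, and the region 17.5 kb from Actb was one of them (-0.61, adjusted p = 0.011), lost without centring (-0.16) and without either ILC2 library (0.075 and 0.071).

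Modulators of phospholipid, calcium and cyclic nucleotide signalling held the most regions of any list. Of 163 regions, 59 (36.2%) were called only in ILC2s against 7 in Th2 cells alone, and 27 and 17 of 118 with equal numbers. Of 60 common regions, 7 were higher and 15 lower, which without centring became 23 and 9 and per kilobase 2 and 11. Plcb4, a phospholipase C coupled to G proteins, had 9 regions called only in ILC2s, up to 531.2 and 589.6 tags, none of which had a peak in any of the other 6 libraries. Pde7b, a cyclic AMP phosphodiesterase, had 10, up to 561.2 and 500.6, and Inpp4b, a phosphoinositide phosphatase, 7, up to 281.8 and 293. Inpp4b also had a higher common region (170 and 220.8 against 43.6 and 38.8, 1.76), which was -0.21 per kilobase. Tiam1, an exchange factor for Rac, had 12 regions called only in ILC2s, up to 220.9 and 175.6, and a common region that was lower (159.1 and 174.3 against 410.8 and 445.6, -1.81), not called per kilobase (-0.14). Itpr1, the inositol trisphosphate receptor gene, had 7 regions called only in ILC2s against 1 in Th2 cells alone, and a common region with a difference of 1.51, which per kilobase was 0.13.

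Common regions at 2 protein kinase C genes of the list were lower in ILC2s. Prkch had 423 and 342.5 tags against 917.6 and 1010.9 (-1.79, adjusted p = 0.0025), and Prkca 95.8 and 105.1 against 253.1 and 264.5 (-1.81), with 4 regions called only in Th2 cells against 1 in ILC2s alone. Pde4d differed by -1.02, Plcg1 by -1.05 and Dgka, a diacylglycerol kinase, by -0.71, the last lost without centring (-0.26) and per kilobase (-0.18).

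By gene, 3493 of the 12072 genes with a region had more regions only in ILC2s than only in Th2 cells, and 256 had the reverse. An excess of 3 or more was found for 343 and 15 genes. The largest excesses for ILC2s were those of Tiam1 (12 and 0), Med12l (11 and 0), Rora (11 and 0), Pde7b (10 and 0), Sema6d, Plcb4 and Prkg1 (9 and 0 each) and Bcl2, the survival gene (8 and 0). With equal numbers of peaks they were 3, 8, 5, 5, 5, 8, 5 and 7, with 0 for Th2 cells in each. The largest excesses for Th2 cells were those of Foxp1 (7), Cd6 (5), Ddr1 and Gm52008 (4 each), Themis, Lclat1 and Slamf1 (3 each) and Wwox (4 against 1 for ILC2s). With equal numbers they were 10, 5, 5, 5, 3, 5, 3 and 7, in the same order, with 0 for ILC2s in each. Tiam1, Prkg1 and others of the ILC2 genes are long, and the counts are not per length.

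Markers of cells that a sort could carry over were followed as lists, and several had low regions in ILC2s, while Blk of the B cell list had 1 only in Th2 cells (49.2 and 70.8). Of 9 B cell genes, 5 and 5 had a peak assigned to them in the ILC2 libraries and 2 and 2 in the Th2 libraries. The summed tags were 590.9 and 504.6 against 117.8 and 125.6. Of 14 macrophage, dendritic cell and neutrophil genes, 6 and 6 had one against 3 and 4 (889.9 and 1001.7 against 238.8 and 325.9 tags). Of 12 eosinophil and mast cell genes, 3 and 3 had one against 1 and 1 (1070.6 and 1380.2 against 423.3 and 567.8), and of 8 natural killer cell genes, 4 and 4 against 3 and 3 (1467.6 and 1490.4 against 592.1 and 602.3). Of 9 airway epithelial genes, 3 and 2 had one against 2 and 2. The tallest regions here that were called only in ILC2s were those of Cpa3 (219.7 and 321.9), the mast cell carboxypeptidase, of Gata2 (176 and 116.1) and of Ebf1 (145.1 and 104.7). No peak was assigned to the defining markers named above in any of the 4 libraries. A peak over a gene can be assigned to a neighbour, as that over the Cd3g start site was to Cd3d. Whether other cells had a part in the ILC2 regions was not tested.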

How the data were processed

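Bowtie, HOMER and the build mm10 are named, without versions, in the submitters' processing notes. Each library's peaks came from the authors' findPeaks run, per the file headers (size 1000 bp, distance 2500 bp, false discovery rate 0.001, 4-fold over thymus IgG), and neighbours were stitched. The deposited signal is the normalized tag count per 10000000 tags. The deposited findPeaks score served only to rank peaks in 1 alternative. The deposited fold change (ratio) over IgG and the deposited p-values were not analysed. The IgG samples carry the H3K4me2 antibody in the labels although their titles say IgG.

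Regions, calls and heights were computed as the results state. Heights were tested with limma 3.58.1 (trended eBayes, R 4.3.3, pseudocount 1, all 12621 common regions). The fit was tried on simulated data with 200 regions changed by 2 or more log2, of which 82.5% were recovered, with 7 false calls. In the data, 71 of 1087 higher and 74 of 1172 lower calls differed by 2 or more. Recovery of smaller differences was not tested. A count test was not used, since the values are scaled tags. The unit of replication is the library, 2 per type. Genes are RefSeq GRCm38.p6 intervals (21917 genes, coding or receptor constant, and Xist), found for 96.3% of regions. The alternatives were other peak numbers and thresholds, merging distances, scalings, pseudocounts, gene assignments, added or left-out libraries and a replicate block. Genes named are list members, the 8 with the largest region surplus per type, and the 6 tallest differing and 6 lowest-p common regions per direction. Members and lists were chosen with earlier results of these data known.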

Additional observations from a re-analysis of the deposited data

Results flagged for a closer look

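Peaks on the mitochondrial genome, which entered no comparison, were found in the Th2 libraries and in none of the other 6 with a peak list. Their summed normalized tags were 67.3 in the lavage library (1 peak) and 747.2 in the lymph node library (2 peaks), and 0 in both ILC2 libraries.

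The Il13 region differed in direction between the sites, with ILC2s below Th2 cells in the lavage (a log2 difference of -0.19) and above them in the lymph node (0.073). This difference between the sites was not tested.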

How the results depend on the processing

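The number of regions called only in ILC2s was 1568 with equal numbers of peaks, 1101 with the 10000 highest and 2363 with equal numbers by score, and those only in Th2 cells 1393, 985 and 1533, or 296 with peaks of at least 80 tags. Leaving out 1 library gave 6103 to 6747 and 535 to 811, the highest Th2 count without the lavage Th2 library. Merging at 0 or 2500 bp, and asking for 25% of the region to be covered, kept both counts within 1.5 times. Common regions higher and lower in ILC2s numbered 540 and 766 per kilobase of called peak, 4931 and 420 without centring, and 207 and 137 with the naive T libraries in the fit. They ranged from 331 to 2076 and from 433 to 1856 with 1 library left out, lowest without an ILC2 library, in fits where 1 library stands for its type and is assumed to vary like the other type. With the number in the titles as a replicate block, 1477 were higher and 1671 lower. Over the 12621 common regions, the lavage minus lymph node differences of ILC2s correlated at 0.25 with those of Th2 cells. The numbers in the titles share a site but are not shown to pair samples.

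Of 93 height differences followed by gene, none changed sign with the replicate block or without chromosomes X and Y, an alternative chosen after seeing the data. Of the 89 that were called, 31 lost the call per kilobase, 9 without centring, 24 and 27 without the lavage and the lymph node ILC2 library, and 46 of 72 with the naive T libraries added. Per kilobase the sign turned at Il5 (0.095), Il13 (0.057), Il10 (0.055), Il1rl1 (-0.10), Inpp4b (-0.21) and Ikzf1 (-0.10). At Il5 it also turned without centring (0.41), with quantile normalization (0.037) and with 1 library left out (-0.12 to 0.029), and at Il13 by the tallest peak (0.38), without centring (0.39), with quantile normalization (0.11) and with 1 library left out (-0.26 to 0.14). The cause of these changes was not tested. Of 16 gene counts, 7 moved by over 1.5 times with equal numbers of peaks and 4 with genes within 10 kb, where Ddr1 had 0, Gm52008 -1, Cd6 -3 and Sema6d 4. The lowest depth, 11870820 tags, limits what low regions of Th2 cells could show.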
